A study of Arabidopsis thaliana with 12 samples.

Results

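The comparison described here is that of rcf1-1 seedlings with wild type seedlings of Arabidopsis thaliana after 12 h at 4 °C. It comprises 4 of the 12 arrays of the series, 2 rcf1-1 arrays and 2 wild type arrays, chosen by genotype and time from the labels with no measured value involved. The other 8 arrays hold both genotypes at 0 h, before chilling, and after 24 h at 4 °C, again with 2 biological replicates each. Seedlings were 14 days old and were grown on agar plates with sucrose at 21 °C in long days. RNA came from whole seedlings and was hybridised to Affymetrix ATH1 arrays, on which a probe set of short oligonucleotides reports the level of a transcript. The wild type was Columbia carrying gl1, a mutation that removes leaf hairs, and the reporter transgene CBF2::LUC, in which luciferase is driven by the promoter of a cold-response regulator. The labels give the mutant only as rcf1-1 and do not state its background. All samples are bulk tissue, in which fewer cells of a type and less RNA per cell cannot be told apart.

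RCF1 encodes a DEAD-box RNA helicase required for correct splicing of messenger RNA precursors in the cold, and rcf1-1 plants are known for altered expression of cold-responsive genes and sensitivity to low temperature. In chilled plants the CBF transcription factors switch on COR genes, whose products protect membranes and proteins during freezing. A separate signalling route, mitochondrial retrograde signalling, raises nuclear genes for alternative respiratory enzymes, transporters and chaperones when respiration is impaired. The hormone jasmonate raises antimicrobial defensins and thionins. The comparison asks which transcripts differ between the genotypes at an intermediate time of chilling, when the cold programme is already running.

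All 22746 probe sets other than array controls were tested. Values are log2 RMA values, so a difference of 1 unit is a 2-fold change. A probe set was called when its adjusted p was under 0.05 in limma fitted on all 12 arrays, with Benjamini-Hochberg adjustment over all probe sets, and differences are given as rcf1-1 minus wild type with limma's standard error. In that fit 307 probe sets were called at 12 h (1.35% of those tested), 123 higher in rcf1-1 (0.541%) and 184 lower (0.809%). The replicate 2 arrays at 24 h, of both genotypes, stand apart from the other arrays and enlarge the pooled spread. In the same fit on the 8 arrays of 0 h and 12 h alone, 3107 probe sets were called (13.7%), 1303 higher (5.73%) and 1804 lower (7.93%), and these included all 307. Both counts are therefore given for each gene list, the 12-array count first.

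Replicates at 12 h correlated across probe sets at 0.995 in rcf1-1 and 0.993 in wild type, and arrays of different genotype at 0.978 to 0.979. The gap between the 5′ and 3′ probe sets of actin, a sign of RNA degradation or of short labelled products, was -1.54 and -1.49 log2 units in rcf1-1, against -1.68 and -1.89 in wild type, and that of GAPDH was -0.75 and -0.70 in rcf1-1, against -0.90 and -1.06 in wild type. Neither overlapped between genotypes. The gap of ubiquitin did overlap, at -1.32 and -1.56 in rcf1-1 and -1.46 in both wild type arrays. The part of these gaps in the results was not tested. On the 24 h replicate 2 arrays the actin gap was -5.89 in rcf1-1 and -6.15 in wild type. Array medians at 12 h were 4.04 and 4.06 in rcf1-1 and 4.11 in both wild type arrays. Levels below them are treated as low signal here, and differences from such levels may be understated. Transcripts of RCF1, AOX1A and CBF2 were not analysed here. AT3G09620, a helicase gene closely related to RCF1, read 2.93 and 2.83 in rcf1-1, against 2.96 and 2.72 in wild type, which is low signal throughout.

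A difference of at least 2-fold at 12 h was seen for 315 probe sets higher in rcf1-1 and 376 lower, of which 115 and 164 were called. The largest differences were mostly gains. A difference of at least 4-fold was seen for 57 probe sets higher and 16 lower, and one of at least 8-fold for 18 higher and 0 lower. Among called probe sets the median difference was 1.78 log2 units for the 123 higher and -1.34 for the 184 lower, beside -0.01 over all probe sets. Without a test, both rcf1-1 arrays lay above both wild type arrays for 6023 probe sets (26.5%) and below them for 6509 (28.6%), together 55.1%. Among the called probe sets, 64 of the higher and 94 of the lower are annotated with exactly 1 gene, and 18 and 12 of these have a gene symbol other than the locus number.

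**Figure D1:**
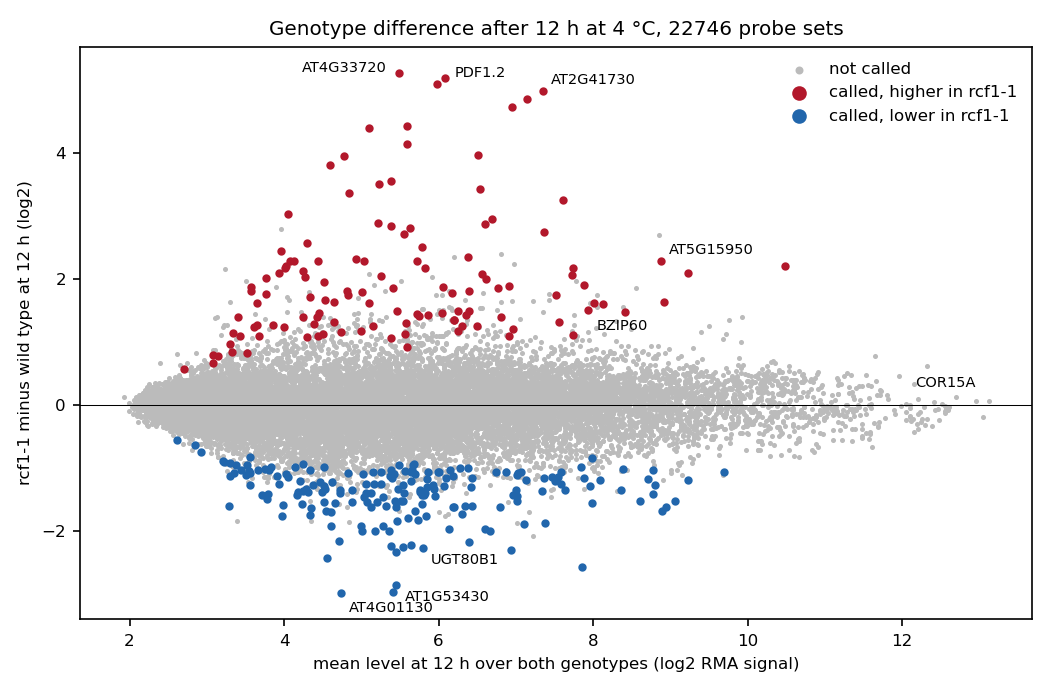
Difference between rcf1-1 and wild type at 12 h (vertical axis, log2 units) against mean level over the 4 arrays (horizontal axis, log2 RMA), 1 point per probe set, with called probe sets coloured and some of the genes described labelled. Called probe sets higher in rcf1-1 reach 5.27 log2 units, and called ones lower in rcf1-1 reach -2.99.

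Genes known to respond to mitochondrial dysfunction were higher in rcf1-1. Of the 23 genes of this list, 10 were measured, which here means that the annotation used pairs them with a probe set of their own. Of the 10, 7 were called, all higher, with a median difference of 2.43 log2 units over the 10. On the 8 arrays of 0 h and 12 h 8 were called, all higher. AT2G41730 read 9.87 and 9.83 in rcf1-1, against 5.10 and 4.62 in wild type. This was 31.7-fold (4.99 ± 0.27 log2 units, limma adjusted p = 2.16e-05), although its probe set is of the type that can also bind related transcripts. AT2G32020, which encodes a GNAT-type acetyltransferase, read 9.53 and 9.62 in rcf1-1, against 4.71 and 4.73 in wild type. The difference was 4.85 ± 0.34 (adjusted p = 6.5e-05 by limma), and the replicates of each genotype nearly coincided beside the gap between genotypes.

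AT2G04050, a MATE-family efflux transporter gene, read 7.99 and 7.61 in rcf1-1, against 3.61 and 3.14 in wild type, a 21.5-fold difference (4.43 ± 0.28, limma adjusted p = 3.77e-05). Its relative AT2G04070 was at low signal in the 12 h arrays, at 3.72 and 3.75 in rcf1-1 and 3.36 and 3.19 in wild type. It was not called on the 12 arrays (0.46 ± 0.21, limma adjusted p = 0.445) and was the eighth member called on the 8 arrays (limma adjusted p = 0.0491). AT2G21640, a gene known to respond to oxidative stress, read 7.70 and 7.61 in rcf1-1, against 3.63 and 3.39 in wild type, which is 17.7-fold. In AT2G41730, AT2G32020, AT2G04050 and AT2G21640 wild type lay below or little above the array median after 12 h in the cold, while the mutant was well above it.

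NDB4, a gene of the external alternative NADH dehydrogenases that feed electrons into the respiratory chain without pumping protons, read 4.95 and 5.49 in rcf1-1, against 2.91 and 2.97 in wild type. It differed by 2.28 ± 0.25 (limma adjusted p = 0.0025). Its relative NDB2 read 7.59 and 7.64 in rcf1-1, against 7.30 and 7.32 in wild type, and was not called (0.30 ± 0.63, adjusted p = 0.953, and 0.213 on the 8 arrays). AT5G51440, a gene for a mitochondrial small heat shock protein, was higher by 2.57 ± 0.48 (adjusted p = 0.0292 by limma). AT5G09570, a gene for a small twin-cysteine protein, was higher by 2.28 ± 0.29 (adjusted p = 0.00405 by limma). The related AT5G64400 was not called, at 0.22 ± 0.18. Members of this list were thus split, with strong differences in 7 and small ones in close relatives of some of them.

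The jasmonate and defensin genes were the other group that stood high in rcf1-1. Of 35 listed, 6 were measured and 5 were called, all higher, by either fit, and the median difference over the 6 was 3.43 log2 units. PDF1.2, an antimicrobial defensin and a standard marker of jasmonate and ethylene signalling, read 8.33 and 9.03 in rcf1-1, against 3.76 and 3.21 in wild type. This was 36.6-fold (5.19 ± 0.49, limma adjusted p = 0.000767). PDF1.2b, a close relative of PDF1.2 whose probe set can bind related transcripts, read 8.40 and 8.64 in rcf1-1, against 4.24 and 2.62 in wild type. Its wild type arrays spread widely, and leaving out single 12 h arrays kept its call in 1 of 4 fits, against 4 of 4 for PDF1.2.

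JAL23, a jacalin-type lectin gene, read 7.17 and 7.42 in rcf1-1, against 3.01 and 2.79 in wild type, a difference of 4.40 ± 0.45 (limma adjusted p = 0.00161). JRG21, a jasmonate-regulated gene, was higher by 2.45 ± 0.30 (adjusted p = 0.00366 by limma), and the thionin THI2.1 by 2.2 ± 0.44 (adjusted p = 0.0397). JMT, the methyltransferase that makes methyl jasmonate, read 3.02 and 2.96 in rcf1-1 and 2.76 and 2.53 in wild type and was not called. Its signal was low in every 12 h array, unlike that of the 5 called members in rcf1-1.

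Other genes of defence proteins were among the largest gains. AT4G33720, which encodes a secreted protein of the pathogenesis-related 1 family, had the largest difference of all probe sets. It read 7.70 and 8.54 in rcf1-1, against 2.57 and 3.12 in wild type, a difference of 5.27 ± 0.53 (limma adjusted p = 0.00133). The lectin genes AT3G16530 and AT5G35940 were higher by 2.95 ± 0.34 and 2.84 ± 0.60. The lipid-transfer-like gene AT4G12490 was higher by 2.72 ± 0.37. The replicates of AT3G16530 were 8.16 and 8.17 in rcf1-1, against 5.09 and 5.33 in wild type, and those of AT4G12490 were 6.71 and 7.12 in rcf1-1, against 4.60 and 3.78 in wild type. The call of AT5G35940 (limma adjusted p = 0.0483) was lost without the variance trend, with a second quantile normalization and with a replicate block, at adjusted p from 0.0505 to 0.0552. Further large gains were those of AT5G14730 (3.37 ± 0.40) and AT5G40690 (2.87 ± 0.37). Of the 3 listed salicylic acid and defence genes that were measured, 0 were called by either limma fit and 0 had an unadjusted p under 0.05, with a median difference of 0.13.

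Several further called genes have symbols, and all of those are named here, a choice made after their values were seen. The osmotin OSM34 was higher by 1.74 ± 0.31. OPCL1, a CoA ligase of jasmonate synthesis, was higher by 1.35 ± 0.25 and read 7.07 and 6.69 in rcf1-1, against 5.64 and 5.42 in wild type. DLAH, a lipase of the family of the jasmonate-pathway lipase DAD1, was higher by 1.14 ± 0.17, with low signal in wild type. PUB23, a ubiquitin ligase that dampens immune signalling, was higher by 1.25 ± 0.26, and CML37, a calmodulin-like calcium sensor, by 0.84 ± 0.14. OCT5, a carnitine transporter-like gene, was higher by 1.1 ± 0.22. AR781, ZCF37, the pectin methylesterase gene ATPMEPCRB and the receptor kinase gene B120 were higher by 1.43, 1.72, 1.27 and 0.57. All 4 arrays of each of these genes were separated by genotype, as were those of every called probe set and of 55.1% of all probe sets.

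**Figure D2:**
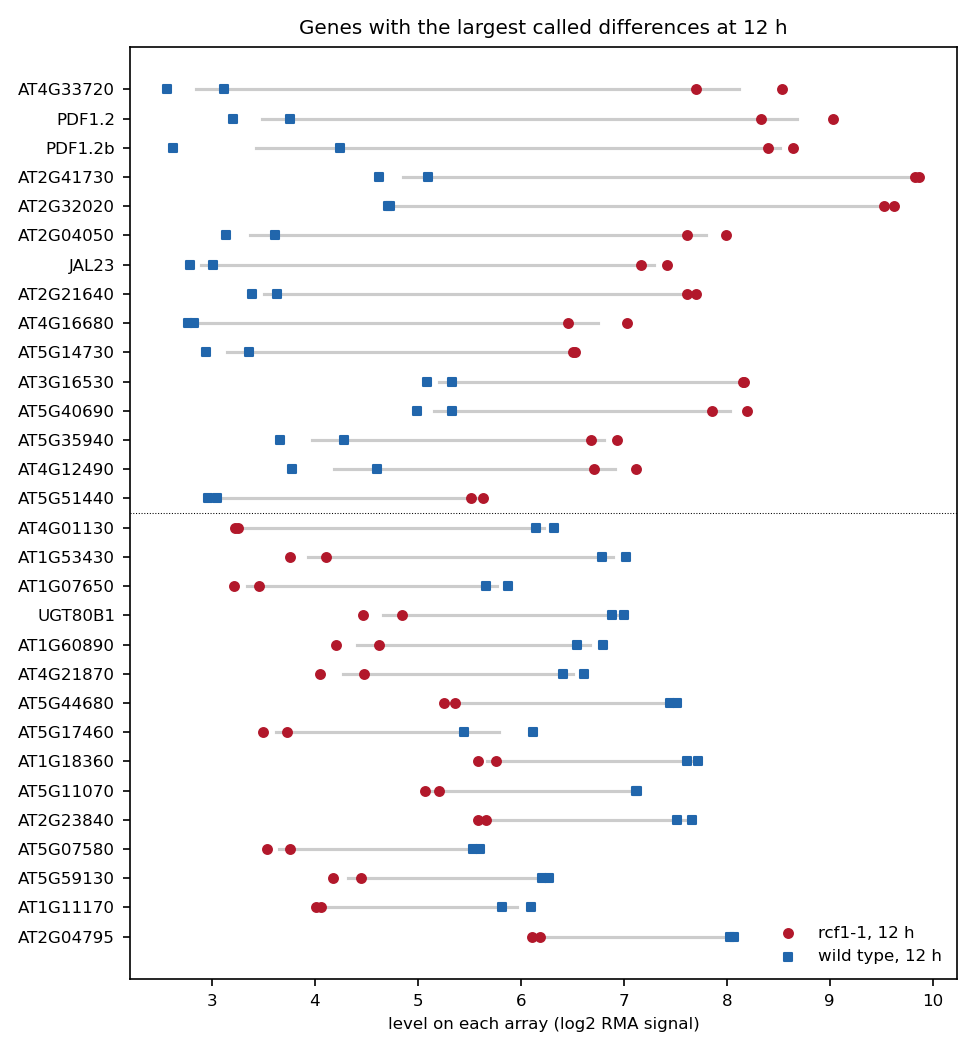
Level in each 12 h array (horizontal axis, log2 RMA) of the 15 called genes with the largest gains and the 15 with the largest losses in rcf1-1, with rcf1-1 and wild type replicates as separate symbols. Genes were drawn only if the 2 rcf1-1 arrays lay apart from the 2 wild type arrays. The widest replicate gap is that of PDF1.2b in wild type, 4.24 and 2.62.

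Detoxification genes did not move as a family. Of 7 listed glutathione transferases measured, 1 was called, where 1.35% of all probe sets were, and the median difference was -0.19 log2 units. By gene symbol 14 were measured, with the same 1 called and a median of 0.04. That one, GSTU22, read 7.89 and 7.49 in rcf1-1, against 5.93 and 5.76 in wild type (1.85 ± 0.24, limma adjusted p = 0.00462). GSTU25 read 8.27 and 7.82 in rcf1-1, against 6.24 and 6.56 in wild type (1.65 ± 0.45), which was called on the 8 arrays (adjusted p = 0.000536) and not on the 12 (adjusted p = 0.121). The other 5 of the 7 listed differed by -0.44 to 0.14. Among UDP-glycosyltransferases 1 of 51 was called, UGT80B1, which was lower. On the 8 arrays 12 were called, 4 higher and 8 lower, beside 5.73% and 7.93% of all probe sets. Of 24 cytochromes P450, 0 were called by limma on 12 arrays, where 1 in each direction had an unadjusted p under 0.05, and 1 on the 8 arrays, CYP71B26, which was lower (-0.81 ± 0.21). The 7 WRKY transcription factors measured gave 0 calls by either fit and 0 with an unadjusted p under 0.05.

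The unfolded protein response restores protein folding in the endoplasmic reticulum. Of its 5 measured genes, 1 was called, BZIP60, the transcription factor whose messenger RNA is spliced in the cytoplasm on folding stress. BZIP60 read 8.64 and 8.73 in rcf1-1, against 7.10 and 7.25 in wild type (1.51 ± 0.21, limma adjusted p = 0.00851). On the 8 arrays the co-chaperone gene ATERDJ3B was called as well, at 0.52 ± 0.30. BZIP28 and BZIP17, membrane-tethered factors of the same response, differed by 0.03 and -0.03. Of 4 measured heat shock genes 0 were called by either limma fit and 0 had an unadjusted p under 0.05, with a median of 0.22.

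Autophagy genes, which build the vesicles that carry cell contents to the vacuole, gave 0 limma calls of 11 on the 12 arrays and 2 on the 8 arrays, with a median difference of 0, and 3 had an unadjusted p under 0.05, all higher. The 2 called on the 8 arrays, where 13.7% of all probe sets were called, encode forms of ATG8, the protein that coats the vesicle membrane. ATG8E read 6.50 and 6.42 in rcf1-1, against 5.66 and 5.83 in wild type (0.71 ± 0.28, limma adjusted p = 0.326 and 0.00844). ATG8B read 5.62 and 5.50 in rcf1-1, against 4.12 and 5.08 in wild type. The other 9 differed by -0.32 to 0.58.

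AT5G15950, which encodes S-adenosylmethionine decarboxylase, an enzyme of polyamine synthesis, had a gain in rcf1-1 that was seen at 12 h and not at the other times. It read 10.04 and 10.00 in rcf1-1 at 12 h, against 7.80 and 7.66 in wild type, which is 4.91-fold (2.29 ± 0.19, limma adjusted p = 0.00033). At 0 h its means were 7.64 in rcf1-1 and 8.47 in wild type, and at 24 h they were 10.49 in rcf1-1 and 10.76 in wild type. The 12 h difference exceeded that at 0 h by 3.13 ± 0.27 (adjusted p = 0.00161 by limma) and that at 24 h by 2.56 ± 0.27 (adjusted p = 0.0048 by limma). It kept its call when each 12 h array was left out in turn.

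Genes of the splicing machinery were examined because RCF1 acts in splicing. Of 4 listed ones measured, 0 were called by either limma fit and 0 had an unadjusted p under 0.05, and their median difference was 0. The U2AF subunits, which recognise the end of an intron, read 6.75 and 6.66 in rcf1-1 and 6.99 and 6.90 in wild type for ATU2AF65A, and 6.29 and 6.41 in rcf1-1 and 6.13 and 6.38 in wild type for U2AF35B. Outside the list, and chosen after its value was seen, AT2G42270 was called. It encodes a BRR2-type helicase of the U5 small nuclear ribonucleoprotein, and read 6.97 and 7.0 in rcf1-1, against 5.23 and 5.01 in wild type (1.87 ± 0.21, adjusted p = 0.0025 by limma). Probe sets of this array report transcript levels and not splice forms, so splicing itself was not measured here.

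Several of the genes with the largest losses in rcf1-1 read alike in both genotypes before chilling. AT4G01130, a GDSL-type lipase gene, read 3.23 and 3.25 in rcf1-1, against 6.15 and 6.32 in wild type, a 7.97-fold lower level (-2.99 ± 0.25, limma adjusted p = 0.00033). Its means at 0 h were 2.74 in rcf1-1 and 2.81 in wild type, both low signal. AT1G53430, a leucine-rich repeat receptor kinase gene, read 4.11 and 3.76 in rcf1-1, against 6.79 and 7.02 in wild type (-2.97 ± 0.32, adjusted p = 0.00196 by limma). Its 0 h means were 3.92 in rcf1-1 and 4.25 in wild type. Mutant means at 0 h and 12 h were 2.74 and 3.24 for AT4G01130 and 3.92 and 3.93 for AT1G53430. All lie below the array medians, so a change in the mutant may be understated. Wild type levels of both genes at 12 h were well above those at 0 h.

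Other losses started from like levels at 0 h, with a mutant level at 12 h that was higher than at 0 h but below wild type. UGT80B1, which attaches glucose to sterols and so alters membrane lipids, read 4.47 and 4.85 in rcf1-1, against 6.89 and 7.0 in wild type (-2.28 ± 0.26, adjusted p = 0.00264 by limma), with 0 h means of 4.02 in rcf1-1 and 4.11 in wild type. WNK9, a protein kinase gene named as one with a symbol, read 3.63 and 3.44 in rcf1-1, against 5.11 and 5.24 in wild type, with 0 h means of 2.68 in rcf1-1 and 2.71 in wild type. AT1G64890, a gene of the folate and biopterin transporter family, was high in both genotypes at 12 h, at 7.78 and 7.91 in rcf1-1 and 9.59 and 9.14 in wild type, with 0 h means of 3.90 in rcf1-1 and 3.47 in wild type. Its cold level was thus present in the mutant but lower (-1.53 ± 0.21, adjusted p = 0.00691 by limma).

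In other losses the mutant level at 12 h lay below that of both genotypes at 0 h. AT1G07650, a leucine-rich repeat receptor kinase gene like AT1G53430, read 3.22 and 3.46 in rcf1-1, against 5.88 and 5.66 in wild type (-2.43 ± 0.29), with 0 h means of 4.34 in rcf1-1 and 4.47 in wild type. AT4G21870, a gene for a small heat shock protein, read 4.48 and 4.05 in rcf1-1 at 12 h, against 6.61 and 6.41 in wild type (-2.25 ± 0.26, limma adjusted p = 0.00292). At 0 h its means were 7.21 in rcf1-1 and 6.48 in wild type. AT5G44680, a DNA glycosylase gene, read 5.36 and 5.25 in rcf1-1, against 7.52 and 7.45 in wild type, with 0 h means of 8.30 in rcf1-1 and 7.99 in wild type. AT5G07580, an ethylene response factor gene, read 3.76 and 3.54 in rcf1-1, against 5.60 and 5.54 in wild type, with 0 h means of 5.42 in rcf1-1 and 5.24 in wild type. AT5G59130, a subtilase gene, had a negative difference at all times instead, of -2.12 at 0 h, -1.92 at 12 h and -2.08 at 24 h. It was not called at 0 h (limma adjusted p = 0.0717). Its 12 h call (limma adjusted p = 0.0246) was lost with a second quantile normalization (adjusted p = 0.0624). The remaining named losses, AT1G60890, AT5G17460, AT1G18360, AT5G11070, AT2G23840, AT1G11170 and AT2G04795, were lower by 1.90 to 2.26 log2 units.

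The lower probe sets with symbols include genes of chlorophyll and starch metabolism. PORB, the light-dependent enzyme of chlorophyll synthesis, read 8.58 and 8.68 in rcf1-1, against 9.90 and 9.76 in wild type (-1.20 ± 0.25, limma adjusted p = 0.0424). NOL, a subunit of chlorophyll b reductase that begins chlorophyll b breakdown, was lower by 1.07 ± 0.21, and APL4, a subunit of the enzyme that commits glucose to starch, by 1.05 ± 0.22. MTP11, a manganese transporter, read 8.26 in both rcf1-1 arrays, against 9.19 and 9.38 in wild type. PEX4, a ubiquitin-conjugating enzyme of peroxisomes, read 6.43 and 6.53 in rcf1-1, against 7.48 and 7.65 in wild type. The transcription factor SPT, the DNA repair gene RAD4, the glutamate receptor-like channel GLR3.5, the ubiquitin ligase LUL2 and ATBRXL2 were lower by 0.75, 0.94, 0.83, 1.13 and 1.03.

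Nuclear genes of photosynthesis were slightly lower without passing the test on 12 arrays. Of 52 listed, 12 were measured, 0 were called by limma and 4 had an unadjusted p under 0.05, all lower, and the median difference was -0.32 log2 units, with a range of -0.58 to 0. Both rcf1-1 arrays lay below both wild type arrays for 11 of the 12, where 28.6% of all probe sets do so. On the 8 arrays 5 were called, all lower, where 7.93% of all probe sets were. They were PSAN and PSAE-1 of photosystem I, the photosystem II antenna LHCB4.2, the Calvin cycle enzyme SBPASE and NdhS of the chloroplast NADH dehydrogenase-like complex. PSAN read 11.08 and 11.03 in rcf1-1, against 11.47 and 11.80 in wild type (-0.58 ± 0.19, limma adjusted p = 0.205 and 0.00381). SBPASE read 10.21 and 10.17 in rcf1-1, against 10.67 and 10.66 in wild type. The median difference of the 12 genes was -0.21 at 0 h. Transcripts of the chloroplast genome, a list added after the data were seen, gave 0 limma calls of 69 and a median of 0.03. Of the 69, 5 had an unadjusted p under 0.05 and 6 were called on the 8 arrays, all higher. On the 8 arrays 5.73% of all probe sets were called higher and 13.7% in either direction.

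The COR genes were at like levels in both genotypes after 12 h. Of 25 listed, 8 were measured, 0 were called by either limma fit and 0 had an unadjusted p under 0.05, and their differences ran from -0.40 to 0.31 with a median of -0.03. COR15A, a chloroplast-protecting protein gene, read 12.48 and 12.39 in rcf1-1, against 12.53 and 12.48 in wild type (-0.07 ± 0.51). COR15B read 11.74 and 11.68 in rcf1-1, against 11.43 and 11.39 in wild type (0.31 ± 0.18), with 0 h means of 3.38 in rcf1-1 and 3.40 in wild type. The dehydrin COR47 read 13.05 and 12.92 in rcf1-1, against 12.88 and 12.96 in wild type (0.06 ± 0.20). These levels lie near the top of the array's scale, where differences can be compressed, and the misses of the threshold do not show that the genotypes were equal.

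Of the 13 listed CBF regulators and the 25 listed clock genes, 1 each was paired with a probe set by the annotation used. The others were not examined by name here, so these lists say little of the regulators as a group. STZ, a zinc finger repressor of the CBF regulator list, read 8.69 in both rcf1-1 arrays, against 7.89 and 7.84 in wild type (0.83 ± 0.29). GI, a clock gene that also affects cold tolerance, read 9.03 and 9.04 in rcf1-1, against 9.76 and 9.60 in wild type (-0.64 ± 0.30). Neither was called on 12 arrays (adjusted p = 0.263 and 0.438 by limma), and both were on the 8 arrays (adjusted p = 0.015 and 0.0182). At 0 h and 24 h the differences were 1.59 and 1.85 for STZ, and -0.06 and 0.34 for GI. The measured abscisic acid gene, LEA4-5, differed by 0.31 at 12 h and was not called.

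Flavonoid and anthocyanin genes mostly read higher in rcf1-1 without passing the test on 12 arrays. Of 5 measured, both rcf1-1 arrays lay above wild type for 4 and below for 1, beside 26.5% and 28.6% of all probe sets. Their median difference was 0.58 log2 units. On 12 arrays 0 were called by limma, and 2 had an unadjusted p under 0.05, both higher. On the 8 arrays 2 were called higher and 1 lower, where 13.7% of all probe sets were called. AT4G14090 and UGT78D2 differed by 0.58 and 0.08 and were called by neither fit. UF3GT, a glycosyltransferase of anthocyanin synthesis, read 7.17 and 6.66 in rcf1-1, against 5.09 and 5.62 in wild type (1.56 ± 0.43, limma adjusted p = 0.126 and 0.00243). DFR, the reductase that commits flavonoids to anthocyanins, read 6.51 and 5.94 in rcf1-1, against 4.74 and 5.20 in wild type (1.25 ± 0.33, limma adjusted p = 0.105 and 0.00495). UGT78D1, a flavonol glycosyltransferase, read 7.46 and 7.30 in rcf1-1, against 7.98 and 8.03 in wild type, and was called lower on the 8 arrays. At 0 h the differences were 0.81 for UF3GT, 0.78 for DFR and 0.29 for UGT78D1.

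**Figure D3:**
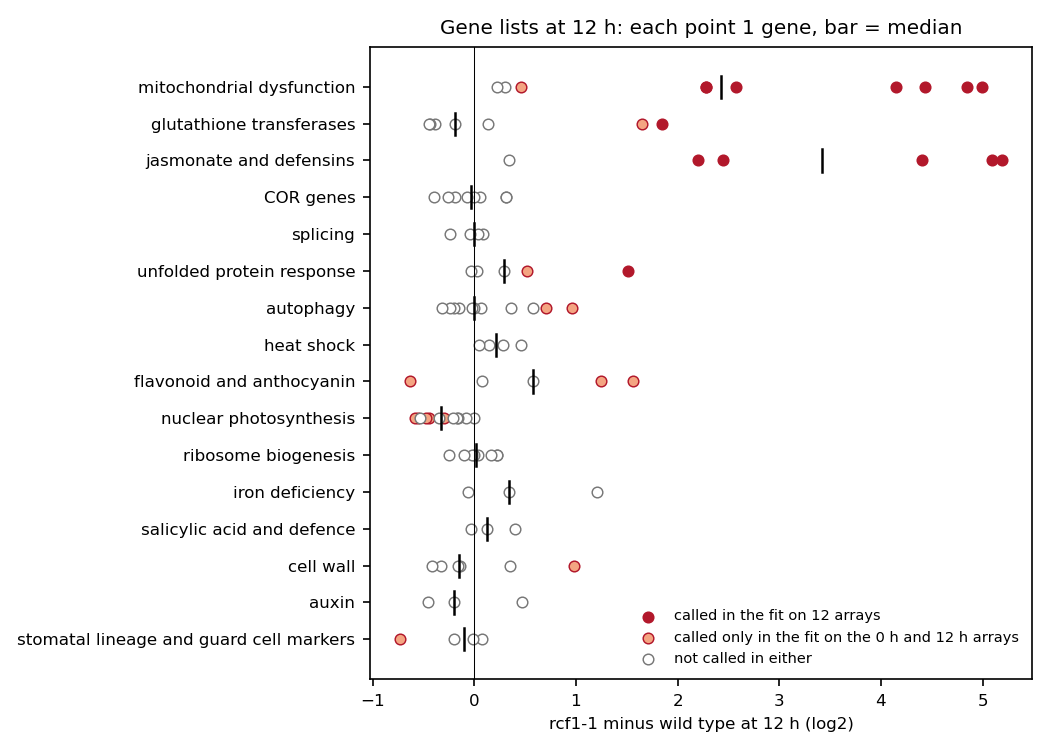
Difference between rcf1-1 and wild type at 12 h (horizontal axis, log2 units) for every measured member of each gene list with at least 3, 1 row per list and 1 point per gene, filled dark where called on the 12 arrays, filled light where called on the 8 arrays alone, with the median as a bar. The mitochondrial dysfunction list and the jasmonate and defensin list lie to the right with medians of 2.43 and 3.43, while the COR genes lie between -0.40 and 0.31.

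Ribosome biogenesis genes gave 0 limma calls of 8 by either fit, 0 at an unadjusted p under 0.05, and a median of 0.02 at 12 h, beside medians of 0.66 at 0 h and -0.91 at 24 h. Of 3 measured iron deficiency genes 0 were called by either limma fit and 0 had an unadjusted p under 0.05. BHLH101, a regulator of iron uptake, differed by 0.34 at 12 h and 3.16 at 0 h. It was called at 0 h. AT1G47400 differed by 1.21 at 12 h and was called at neither time, and its wild type arrays at 0 h read 6.87 and 3.53, so its 0 h difference of 3.63 ± 0.95 (limma adjusted p = 0.327) depends on which of them is used. Cell wall genes gave 0 limma calls of 6 on the 12 arrays, with XTH18 under 0.05 before adjustment and called on the 8 arrays (0.98 ± 0.25). Auxin genes gave 0 limma calls of 3 by either fit, 0 with an unadjusted p under 0.05, and a median of -0.20.

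Markers of cell types and stages were called in 0 cases on the 12 arrays. The stomatal regulators SPCH, MUTE and FMA differed by -0.20, 0.08 and -0.01, and 0 of the 4 genes marking stomata and guard cells were called by limma on 12 arrays. AT1G22690, the only 1 of the 4 with an unadjusted p under 0.05, was called on the 8 arrays at -0.73 ± 0.21. Its difference at 0 h was -0.67. The root hair gene EXPA7 differed by -0.10 and the trichome gene TRY by -0.06. Of the 2 senescence genes, SAG29 read 6.86 and 6.92 in rcf1-1, against 7.78 and 7.83 in wild type, and was called on the 8 arrays (-0.92 ± 0.47). WRKY6 read 6.56 and 6.55 in rcf1-1, against 5.75 and 6.11 in wild type (0.63 ± 0.32), and was called by neither fit. These 2 genes lay in opposite directions, each with no overlap, which holds for 55.1% of all probe sets. At 0 h SAG29 differed by -0.82 and WRKY6 by 0.01. Many of these markers lie at low signal, and the part of cell type shares in the results above was not tested.

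The genotype difference at 12 h was set against that at 0 h and 24 h, which rest on separate arrays but share the estimate of the spread. At 0 h 25 probe sets were called (0.11%), and at 24 h 1706 (7.5%). Calls in the higher direction were 0.0923% of probe sets at 0 h and 3.31% at 24 h, and in the lower direction 0.0176% and 4.19%. Of the 123 probe sets called higher at 12 h, 109 were also positive at 0 h (88.6%, beside 46% of all probe sets) and 117 at 24 h (95.1%, beside 50%). Of these 123, 13 were called higher at 0 h and 84 at 24 h. Of the 184 called lower at 12 h, 129 were negative at 0 h (70.1%) and 160 at 24 h (87%), with 1 called at 0 h and 92 at 24 h. With 46% of all probe sets positive at 0 h and 50% at 24 h, negative values were the more common ones at 0 h. The 70.1% thus stands nearer to the share of all probe sets than the 88.6% does. The median difference of the higher group was 0.49 at 0 h, 1.78 at 12 h and 1.47 at 24 h, and that of the lower group -0.16, -1.34 and -0.85. Both groups were chosen at 12 h, so the 12 h medians are larger by that choice.

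Genes of defence and of mitochondrial stress had the following differences over time. PDF1.2 was higher in rcf1-1 by 4.39, 5.19 and 4.50 log2 units at 0 h, 12 h and 24 h, and JAL23 by 4.06, 4.40 and 3.68. AT4G33720 was higher by 4.96, 5.27 and 3.66. AT2G32020 was higher by 0.11, 4.85 and 5.09, NDB4 by 0.27, 2.28 and 4.88, and AT2G04050 by 0.85, 4.43 and 7.34. Other members of the mitochondrial list read higher before chilling as well, AT2G21640 by 3.81, 4.15 and 6.58, AT5G09570 by 2.39, 2.28 and 4.11, and AT5G51440 by 1.67, 2.57 and 4.46. Of these, AT5G51440 was not called at 0 h. BZIP60 was higher by 0.01, 1.51 and 3.19.

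A difference of differences tested this per probe set. Between 12 h and 0 h 20 probe sets were called (0.0879%), 11 with a larger value of rcf1-1 minus wild type at 12 h (0.0484%) and 9 with a smaller one (0.0396%). On the 8 arrays 685 were called (3.01%), of which 250 had a larger value (1.1%) and 435 a smaller one (1.91%). Among the genes with the largest such gains were AT2G32020 (4.75 ± 0.47, limma adjusted p = 0.00347), AT2G41730 (3.82 ± 0.38, limma adjusted p = 0.00347) and AT2G04050 (3.58 ± 0.40, limma adjusted p = 0.00857). Among those with the largest losses were AT4G21870 (-2.98 ± 0.37, limma adjusted p = 0.0176) and AT4G01130 (-2.92 ± 0.35, limma adjusted p = 0.0136). PDF1.2 was not called, with 0.80 ± 0.69.

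Between 12 h and 24 h 58 probe sets were called (0.255%), 10 with a larger (0.044%) and 48 with a smaller (0.211%) rcf1-1 minus wild type value at 12 h. This comparison uses the 24 h replicate 2 arrays. AT2G20720 showed 0.13 at 12 h and 4.51 at 24 h, AT1G03660 0.29 and 3.89, and AT2G04070 0.46 and 3.79, so the excess in rcf1-1 was small at 12 h beside that at 24 h. AT2G27420, a cysteine protease gene, read 6.41 and 6.30 in rcf1-1 at 12 h, against 4.91 and 5.16 in wild type, while its means at 24 h were 3.54 in rcf1-1 and 5.81 in wild type. AT5G17460 showed -2.17 at 12 h and 0.01 at 24 h, a loss present at 12 h with no difference measured at 24 h.

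**Figure D4:**
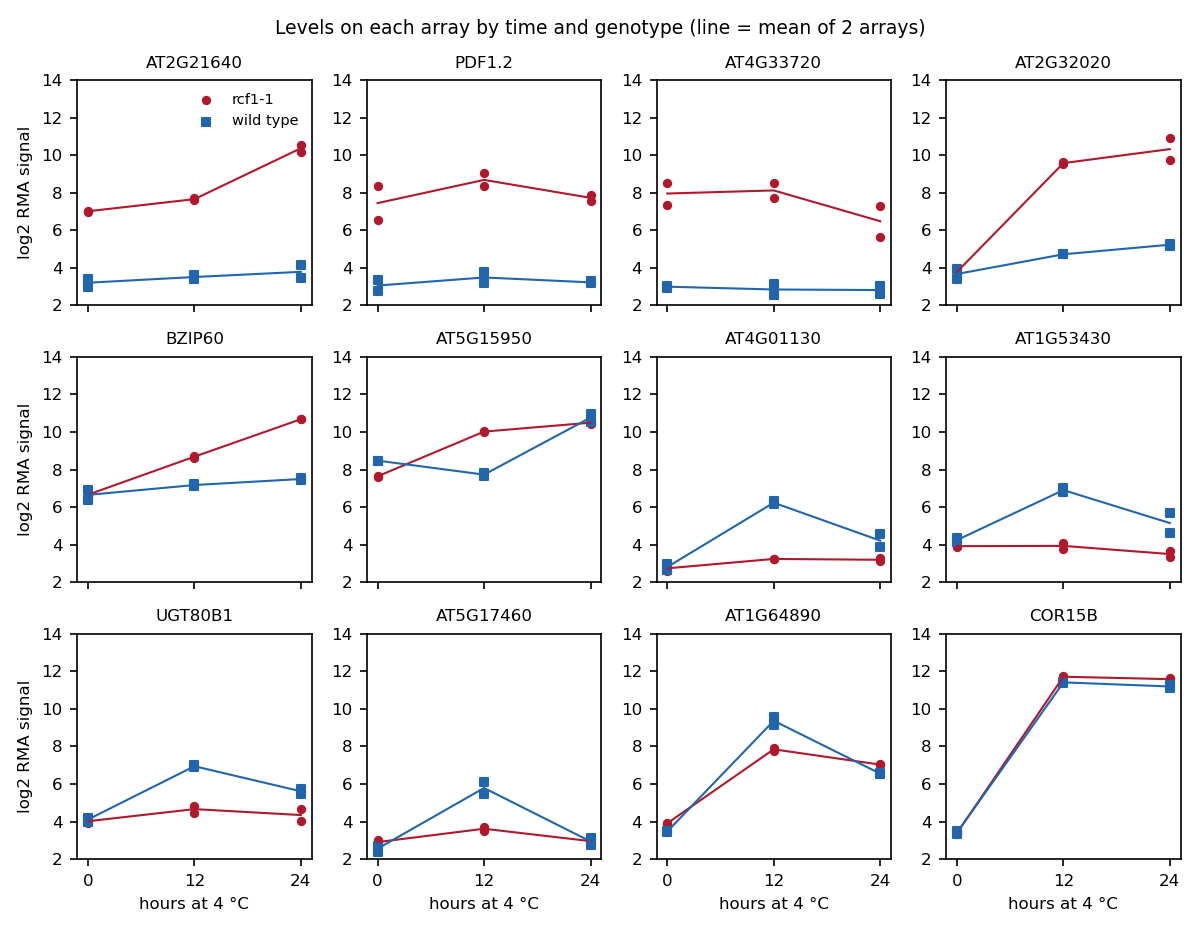
Levels (vertical axis, log2 RMA) at 0 h, 12 h and 24 h at 4 °C (horizontal axis) of 12 genes in rcf1-1 and wild type, with points for arrays and lines for means of 2. PDF1.2 is apart at every time, AT2G32020 is apart at 12 h and 24 h, and AT5G15950 is apart at 12 h, where it reads 10.04 and 10.00 in rcf1-1 against 7.80 and 7.66 in wild type.

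Few calls were kept in every fit that left out a 12 h array. When each of the 4 arrays of 12 h was left out in turn from the 12-array fit, 17 of the 123 higher and 4 of the 184 lower probe sets kept their call in all 4 fits. Each of these fits called 23 to 40 probe sets in all. The named genes among the 17 are AT4G33720, PDF1.2, AT2G41730, AT2G32020, AT2G04050, JAL23, AT2G21640, AT4G16680, AT5G15950 and NDB4. The named ones among the 4 are AT1G53430 and AT4G01130. AT4G16680, at 7.03 and 6.46 in rcf1-1 against 2.77 and 2.83 in wild type, is the largest difference on that list not described above. A lone array left in a genotype is assumed in these fits to vary like the other groups. With 1 array the difference is also less precise, so a lost call does not show that it depended on the array left out.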

How the data were processed

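Levels were measured on 12 ATH1 arrays, 2 biological replicates for each of 6 groups of genotype and time, taken from the labels. Each array has a log2 value per probe set, deposited by the authors, for which the submitters' processing notes name RMA. Which arrays were normalized as one set, and in what software, is not given in the sources used here. RMA subtracts background, equalises distributions across arrays and summarises probes, so a global shift between arrays would not be seen. Of 22810 probe sets, 64 controls were left out of the tests. The platform annotation, with symbols updated through the gene table of assembly TAIR10.1, names 1 gene for 13513 of the 22746 others, several for 503 and none for 8730. Probe sets without exactly 1 gene were tested but not named. A listed gene that the annotation pairs with no probe set of exactly 1 gene is counted as not measured, even if the array holds probes for it.

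Group means were fitted with limma 3.58.1 in R 4.3.3 on all 12 arrays (6 residual degrees of freedom), with eBayes and a trend on mean level (prior degrees of freedom 4.7). P-values are two-sided and Benjamini-Hochberg adjusted over all probe sets, and called means under 0.05. The second fit used the 8 arrays of 0 h and 12 h. Errors are limma's standard errors. Simulated data served to test the procedure. Their spread was taken from the 0 h and 12 h groups, so they did not hold the deviation of the 24 h replicate 2 arrays. With 2 arrays a group, the number of arrays limits the precision.

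The members, the 22 gene lists (506 genes, 105 measured) and the tests were chosen with earlier results of these data known, so no list is independent evidence. A gene with several probe sets was taken from that with the highest mean. Genes named are the 15 largest called in each direction with 1 gene and arrays that do not overlap, up to 5 called members of each list (or 2 uncalled), the 5 largest in each direction of each difference of differences, and a few fixed genes; others are marked as chosen after their values were seen. Roles are background knowledge and not from the files. Other settings were no variance trend, removal of probe sets under the 30th percentile, array quality weights, another quantile normalization on top, a replicate block, a minimum change of 2-fold, other sets of arrays, leaving out each array, and gene means for the lists. Same-numbered replicates did not deviate together at 12 h (correlation of replicate differences -0.06, and -0.07 at 0 h), while at 24 h they did (0.69), so the number was not used to pair arrays. No sequence was used here.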

Additional observations from a re-analysis of the deposited data

Results flagged for a closer look

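Genotype differences that changed with time stood out by the test of the change itself, limma fitted on all 12 arrays. Between 12 h and 0 h 20 probe sets were called, and between 12 h and 24 h 58. Values here are the 12 h difference of rcf1-1 minus wild type less the difference at the other time, in log2 units.

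Against 0 h, the 12 h difference was larger for AT2G32020 by 4.75, AT2G41730 by 3.82, AT2G04050 by 3.58, AT5G15950 by 3.13 and AT4G22470 by 1.79. AT4G22470, a gene for a proline-rich protein of the lipid-transfer type, read 4.35 and 4.58 in rcf1-1 at 12 h, against 3.02 and 2.66 in wild type. The change was -2.98 for AT4G21870, -2.92 for AT4G01130, -2.52 for AT5G17460, -2.48 for AT5G44680 and -1.96 for AT1G64890. AT5G17460 read 3.50 and 3.73 in rcf1-1 at 12 h, against 5.45 and 6.12 in wild type, with 0 h means of 2.91 in rcf1-1 and 2.56 in wild type.

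Against 24 h, a larger 12 h difference was seen for AT2G27420 (3.59), AT5G15950 (2.56) and AT1G55960 (2.03). AT1G55960 read 7.20 and 7.33 in rcf1-1 at 12 h, against 6.72 and 6.43 in wild type, while its 24 h means were 5.89 in rcf1-1 and 7.23 in wild type. Its 12 h difference alone was not called (limma adjusted p = 0.167). The change was -4.38 for AT2G20720, -4.20 for AT3G62550, -3.69 for AT3G15450, -3.59 for AT1G03660 and -3.33 for AT2G04070. AT3G62550, a universal stress protein gene, had 24 h means of 10.44 in rcf1-1 and 6.95 in wild type, and AT3G15450 had 9.29 in rcf1-1 and 5.97 in wild type.

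The change against 24 h was also -2.92 for AT2G04050, -2.73 for AT2G41730, -2.43 for AT2G21640, -2.33 for ATG8E, -2.18 for AT5G17460 and -2.01 for AT1G64890. For AT2G41730 and AT2G04050 the genotype difference at 12 h was thus larger than at 0 h and smaller than at 24 h. For AT5G15950 it exceeded both.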

How the results depend on the processing

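Counts of calls depend on which arrays set the spread. At 12 h, 307 probe sets were called. The count was 3107 on the arrays of 0 h and 12 h, 3105 without both 24 h replicate 2 arrays, 2196 with a term for those arrays, 2982 with array quality weights, 3874 on the 4 compared arrays, 478 without the trend and 19 for a minimum change of 2-fold. All 19 were among the 307, and 16 of them were higher. Leaving out 1 array gave 23 to 673 calls. It was 23 and 39 without rcf1-1 replicates 1 and 2 of 12 h, and 37 and 40 without those of wild type.

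For the 12 h difference against 0 h, the 20 calls became 685, 682, 393 and 584 under the first 4 of those settings and 6 for a minimum of 2-fold, with 4 to 52 on leaving out 1 array. A second quantile normalization gave 11 larger and 5 smaller. Against 24 h, the 58 calls became 2024 without both 24 h replicate 2 arrays, 1530 with their term, 31 with weights, 128 without the trend, 103 after a second quantile normalization and 5 for a minimum of 2-fold, with 6 to 428 on leaving out 1 array. Replicates at 24 h differed with an SD of 0.65 log2 units in both genotypes, against 0.21 in rcf1-1 and 0.25 in wild type at 12 h. The cause of the other shifts was not tested.

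On the 8 arrays of 0 h and 12 h the called members were 2 glutathione transferases, 1 CBF regulator, 1 clock gene, 2 unfolded protein response genes, 2 autophagy genes, 3 flavonoid genes, 5 photosynthesis genes and 1 gene each for cell wall, senescence and stomata. In that fit 13.7% of all probe sets were called. Gene means changed no list count by more than 1.5 times. Of 78 named probe sets, 0 with a call reversed direction in the settings run, and between 18 and 24 lost their call when 1 of the 12 h arrays was left out. With the replicate number as a block, 304 probe sets were called at 12 h, 16 for the change against 0 h and 52 against 24 h, and 1 named gene, AT5G35940, lost its call. What the replicate number stands for is not given by the labels. Same-numbered arrays of the genotypes deviated together at 24 h (correlation of replicate differences 0.69), but not at 0 h (-0.07) or 12 h (-0.06).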
